A study of Bos taurus with 6 samples.

Results

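The genes described here write, keep, remove or guard DNA methylation. They are UHRF1, UHRF2, DNMT1, DNMT3A, DNMT3B, TET1, TET2, TET3, DPPA3 and TRIM28. These 10 genes were taken by name, and each symbol was found once among the 17325 genes of the deposited files. RNA had been sequenced from Bos taurus oocytes matured in vitro to metaphase II (MII), the stage at which the egg waits for fertilization. The 3 libraries titled NC are a negative control group, called control here, and the 3 titled siMTFP1 are an MTFP1 knockdown group, called knockdown. MTFP1 encodes an inner mitochondrial membrane protein linked to mitochondrial fission. The way the knockdown was made, the number of oocytes or animals behind a library, and their breed and age are not given in the sources used here. The p-values therefore measure the spread between these libraries, which may be technical.

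Methylation of cytosine is set by de novo methyltransferases and copied after DNA replication by a maintenance enzyme that is brought to half-methylated sites by a UHRF protein. It is removed by dilution or by TET enzymes, which oxidize the methyl group. The growing oocyte acquires its methylation before ovulation, transcription then stops, and the mRNA of the MII oocyte is a store for the early embryo. In the mouse, DPPA3 (also known as STELLA or PGC7) keeps UHRF1 out of the oocyte nucleus and shields the maternal genome from TET3 after fertilization, and TRIM28 helps imprinted regions to keep their methylation.

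The libraries were alike as a whole and the label could not be checked by its target. Each library gave 15120 to 15533 genes above 0, in FPKM (fragments mapped to a gene, scaled to its transcript length and to the library's total), and its mean correlation with the other 5 across tested genes lay between 0.978 and 0.982. FPKM holds no read totals, so the depth of each library is unknown. MTFP1 was listed at 0.53, 0.55 and 0.05 FPKM in control 1, 2 and 3 and at 0.43, 0.58 and 1.15 in knockdown 1, 2 and 3, so the targeted transcript was not lower under the knockdown label (log2(FPKM + 1) differed by 0.32, exact two-sided permutation p = 0.4). Groups are therefore named by label, and higher or lower refers to the labels. Summed FPKM of 13 oocyte markers was 29483 to 30761 under the control label and 28322 to 28852 under the knockdown label, although 9 of them had a higher and 4 a lower mean there. The lower ones include the egg coat gene ZP2 (means of 4566 and 3135 FPKM) and BTG4 (10610 and 9630 FPKM). Of 20 cumulus and granulosa markers 19 were matched, of which 12 had a higher and 7 a lower mean under the knockdown label. Their summed level was 172 to 372 FPKM under the control label and 206 to 1191 under the knockdown label. FSHR was at 0 in 5 of the 6 libraries and AMH in 4. Knockdown 2 held the highest sum, mostly from TIMP1 (955 FPKM). The 5 matched markers of leukocytes, red cells and endothelium summed to 48.1 to 75.7 FPKM under the control label and 26.2 to 61.6 under the knockdown label, most of it the globin HBA, and PTPRC was at 0 in 5 libraries.

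The mRNA store held transcripts of the guard DPPA3 at a very high level and of UHRF1 and UHRF2 at a high level. Among the 10 genes, transcripts of the methyltransferases DNMT1 and DNMT3B were at a middle level, and those of the TET genes and DNMT3A at a low level. Set against all genes in the files, DNMT3B exceeded 83.9%, DNMT1 79.9% and TET3 60.2% of them by mean level. TET2 exceeded 44.9%, DNMT3A 34.2% and TET1 17.6%. FPKM is a level per length, and the genes were ordered by it. The division of reads between similar genes is not given, so a gene with a close copy may be misplaced in this order. How evenly the transcripts of different genes were captured was not tested. DPPA3 averaged 5297 FPKM over the 6 libraries and was the 14th most abundant of all genes by its mean, between rank 12 and rank 17 in single libraries. UHRF1 averaged 576 FPKM (rank 224) and UHRF2 averaged 214 FPKM (rank 614). DNMT3B (25.8 FPKM), TRIM28 (21.5) and DNMT1 (17.2) followed at ranks 2793, 3099 and 3479. TET3 averaged 3.52 FPKM, TET2 1.08, DNMT3A 0.447 and TET1 0.0833. The ranges over the 6 libraries did not overlap between neighbours in this order, with 1 exception. DNMT3B and TRIM28 overlapped, and DNMT3B was the higher of the pair in 5 of 6 libraries. DPPA3 made up 81.8% to 90.01% of the summed FPKM of the 10 genes, and the 10 together took 0.667% to 0.811% of a library's FPKM.

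**Figure D1:**
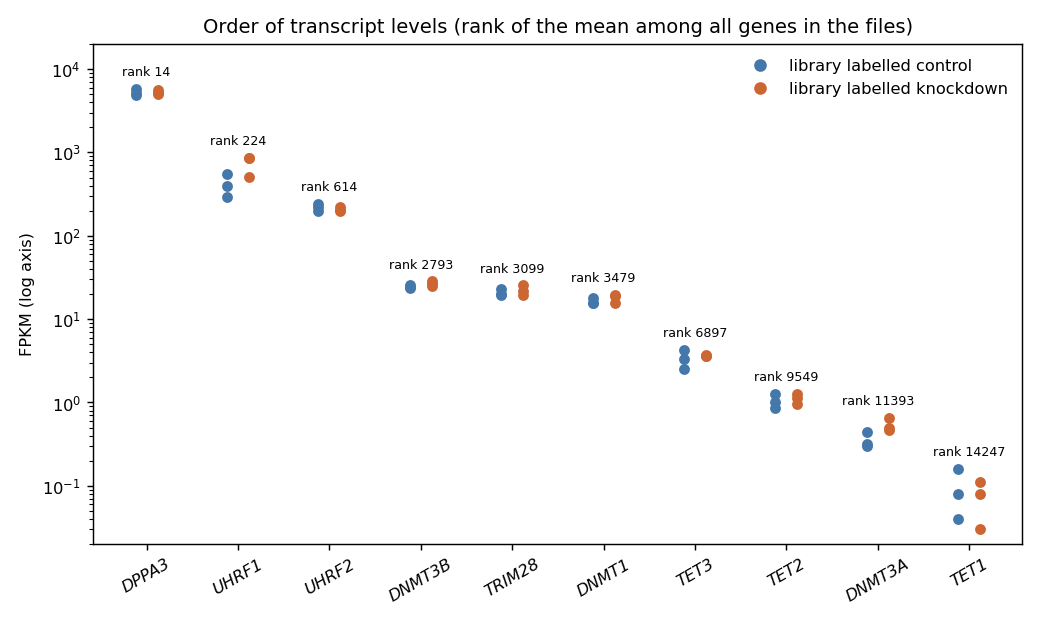
FPKM of each gene (log axis) in the 3 libraries labelled control and the 3 labelled knockdown, ordered by the mean over all 6, with the rank of that mean among the 17325 genes. The levels run from DPPA3 at rank 14 to TET1 at rank 14247, and the ranges of neighbouring genes do not overlap except those of DNMT3B and TRIM28.

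Of the 10 genes, 0 passed the test between the groups and 1, UHRF1, had an unadjusted p under 0.05. Genes with a mean of at least 1 FPKM were tested with limma on log2(FPKM + 1), which keeps 9730 genes and 8 of these 10. DNMT3A and TET1 lie below that filter and their p-values come from the fit with no filter. At a Benjamini-Hochberg adjusted p of 0.05, 0% of the tested genes passed, and 6.53% had an unadjusted p under 0.05 (3.86% in the higher direction under the knockdown label). Mean log2 levels were higher under the knockdown label in 7 of the 10 genes and in 6 of the 8 tested ones, where the same held for 54.2% of all tested genes. That background share was 48.1% with median-ratio scaling, 47.0% under quantile normalization and 47.9% without control 3, settings that gave 7, 7 and 6 of the 10 genes. The median log2 difference was 0.10 over the 8 tested members and 0.02 over all tested genes. In a bulk library, fewer cells of a type and less RNA per cell cannot be told apart.

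**Figure D2:**
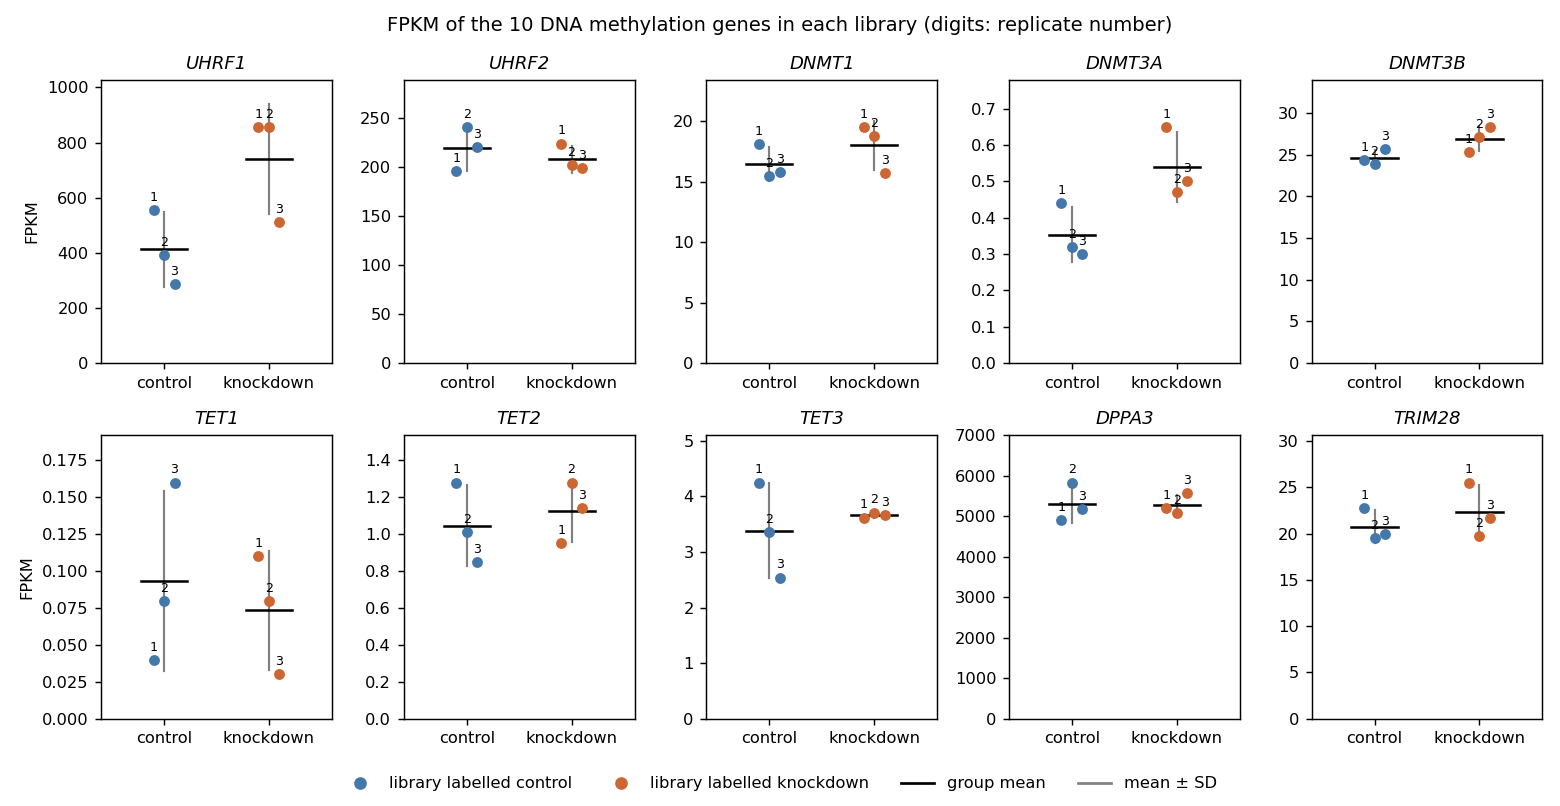
FPKM of each of the 10 genes by library (points, with the replicate number), the group mean (black bar) and the mean ± SD (grey line), each panel with its own axis from 0. UHRF1 shows the widest gap between group means in FPKM among the abundant genes, with control 1 (556) above knockdown 3 (510), and DNMT3A is the panel in which the groups do not overlap.

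Among the maintenance genes, UHRF1 was at a higher mean level under the knockdown label and UHRF2 was not. UHRF1, the E3 ubiquitin ligase that recognizes half-methylated DNA and recruits DNMT1, was at 555.8, 392.1 and 288.5 FPKM in control 1, 2 and 3 and at 856.5, 855.8 and 510.2 FPKM in knockdown 1, 2 and 3. Knockdown 1 and knockdown 2 stood above all other libraries, while knockdown 3 lay below control 1, so the groups overlapped. Group means of 412 ± 135 and 741 ± 200 FPKM (SD, n = 3) differed by 0.86 in log2(FPKM + 1) (SE 0.27, unadjusted 95% interval 0.24 to 1.48). It did not pass over the 9730 tested genes (limma, unadjusted p = 0.0124, Benjamini-Hochberg adjusted p = 0.698), and the exact two-sided permutation test gave p = 0.2, where 3 against 3 cannot go below 0.1. In absolute size the difference exceeded that of 98.3% of tested genes. UHRF1 also varied within groups, with an SD of 0.45 (log2) that exceeded the SD of 91.9% of them. Knockdown 1, with a summed cumulus and granulosa marker level of 210 FPKM, had nearly the same UHRF1 level as knockdown 2, where that sum was 1191 FPKM. The red cell gene HBA was at 45.07, 61.77 and 74.09 FPKM in control 1, 2 and 3 and at 24.08, 25.01 and 57.87 FPKM in knockdown 1, 2 and 3. It ran in the reverse order of UHRF1 over the 6 libraries. HBA was picked from the 5 matched markers of other cell types after its values were seen. Of the 5, 3 had a lower and 1 a higher mean under the knockdown label. CD68 was the higher one (0.107 and 0.403 FPKM), and CD3E (2.69 and 2.52 FPKM) did not run in that order. The part of other cells in the UHRF1 difference was not tested. ARRDC5, a gene that overlaps UHRF1 in the RefSeq annotation of ARS-UCD2.0, was listed at 0.08 FPKM at most.

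UHRF2, the paralog of UHRF1 that also binds modified cytosine, was at 195.5, 240.9 and 220.8 FPKM in control 1, 2 and 3 and at 224.0, 201.6 and 198.9 FPKM in knockdown 1, 2 and 3. All 3 values under the knockdown label lay within the range of those under the control label, and the highest and lowest library differed by 1.23-fold, against 2.97-fold for UHRF1. The log2 difference was -0.07 (SE 0.13, unadjusted 95% interval -0.36 to 0.22, limma adjusted p = 0.956). UHRF1 was the more abundant of the pair in all 6 libraries and made up 74.0%, 61.9% and 56.6% of their summed FPKM in control 1, 2 and 3 and 79.3%, 80.9% and 72.0% in knockdown 1, 2 and 3. Control 1 lay above knockdown 3 in this share as well.

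DNMT1, the methyltransferase that copies methylation onto the new strand, was at 18.1, 15.5 and 15.8 FPKM in control 1, 2 and 3 and at 19.5, 18.8 and 15.7 FPKM in knockdown 1, 2 and 3. The same 3 libraries that led in UHRF1, knockdown 1, knockdown 2 and control 1, also led in DNMT1, and the remaining 3 lay close together. The log2 difference was 0.12 (SE 0.15, unadjusted 95% interval -0.23 to 0.46, limma adjusted p = 0.934). DNMT1 has an oocyte form made from another first exon, and values per gene do not separate the forms.

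By FPKM, transcripts of the de novo writers were nearly all DNMT3B. DNMT3B was at 24.3, 23.9 and 25.7 FPKM in control 1, 2 and 3 and at 25.3, 27.1 and 28.3 FPKM in knockdown 1, 2 and 3. Knockdown 2 and knockdown 3 were above every library labelled control, knockdown 1 was below control 3, and the SD within groups (0.07, log2) was lower than that of all but 2.29% of tested genes. The log2 difference was 0.12 (SE 0.13, unadjusted 95% interval -0.18 to 0.42, limma adjusted p = 0.915). DNMT3A, the de novo enzyme that sets most methylation in the mouse oocyte together with its cofactor DNMT3L, was at 0.44, 0.32 and 0.30 FPKM and at 0.65, 0.47 and 0.50 FPKM. It was the 1 gene of the 10 whose groups did not overlap, by a margin of 0.44 against 0.47 FPKM, and the groups do not overlap for 9.83% of all genes in the files (5.66% in this direction). The log2 difference was 0.19 (SE 0.08, unadjusted 95% interval -0.01 to 0.39), with an exact permutation p of 0.1, the smallest that 3 against 3 can give. It did not pass in limma with no filter (unadjusted p = 0.0642, adjusted p = 0.819), and at this level the pseudocount of 1 sets much of the value. DNMT3B made up 97.5% to 98.8% of the summed FPKM of the pair. LOC112448893, a gene that overlaps DNMT3A in the RefSeq annotation of ARS-UCD2.0, was listed at 0.13 FPKM in knockdown 2 and 0.03 in control 3. It was at 0 in the remaining libraries, and its part in the DNMT3A values was not tested.

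Among the erasers, TET3 was the main transcript and 0 of the 3 TET genes passed the test. TET3, the enzyme that oxidizes methylcytosine in the zygote, was at 4.25, 3.36 and 2.54 FPKM in control 1, 2 and 3 and at 3.62, 3.71 and 3.66 FPKM in knockdown 1, 2 and 3. The 3 libraries labelled knockdown lay within the range of those labelled control (log2 difference 0.11, SE 0.18, unadjusted 95% interval -0.31 to 0.52, limma adjusted p = 0.953). TET2, which lacks the DNA-binding CXXC domain of its relatives, was at 1.28, 1.01 and 0.85 FPKM and at 0.95, 1.28 and 1.14 FPKM, lay within the control range under the knockdown label, and differed by 0.06 in log2 terms (SE 0.17, limma adjusted p = 0.976). TET1, best known from embryonic stem cells and primordial germ cells, was listed at 0.04, 0.08 and 0.16 FPKM and at 0.11, 0.08 and 0.03 FPKM and the groups overlapped (log2 difference -0.03, limma with no filter, adjusted p = 0.943). TET3 made up 71.5% to 77.4% of the summed FPKM of the TET genes, which was 4.52 ± 1.01 FPKM under the control and 4.86 ± 0.197 under the knockdown label (SD, n = 3).

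The means of both guards differed between the groups by less than the spread between libraries. DPPA3 was at 4910.3, 5835.2 and 5178.8 FPKM in control 1, 2 and 3 and at 5207.6, 5085.9 and 5564.4 FPKM in knockdown 1, 2 and 3. Every library labelled knockdown lay within the range of those labelled control, with means of 5308 ± 476 and 5286 ± 249 FPKM (SD, n = 3). The log2 difference was -0.0033 (SE 0.11, limma adjusted p = 0.999), with an unadjusted 95% interval of -0.24 to 0.24, or 0.844-fold to 1.18-fold. TRIM28, the corepressor that KRAB zinc finger proteins bring to imprinted regions and retroelements, was at 22.77, 19.54 and 19.97 FPKM and at 25.52, 19.72 and 21.71 FPKM. Knockdown 1 was the highest library and the other values of both groups were interleaved (log2 difference 0.10, SE 0.15, unadjusted 95% interval -0.25 to 0.44, limma adjusted p = 0.951).

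**Figure D3:**
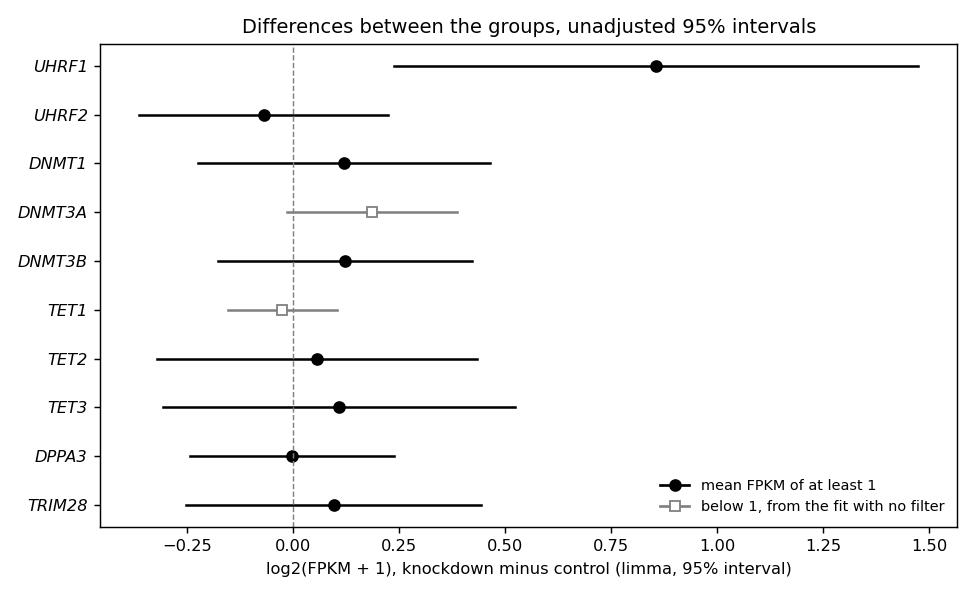
Log2 difference (knockdown minus control, on the log2(FPKM + 1) scale) of each gene with its unadjusted 95% interval from limma, as filled circles for the 8 genes tested and open squares for DNMT3A and TET1, taken from the fit with no filter. The interval of UHRF1, 0.24 to 1.48, lies above 0, and those of the other 9 genes include 0.

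Ratios within a library do not depend on how that library was scaled, apart from the added pseudocount, and 6 were computed. The ratio of UHRF1 to DNMT1 was 30.7, 25.3 and 18.3 in control 1, 2 and 3 and 43.9, 45.5 and 32.5 in knockdown 1, 2 and 3. All 3 libraries labelled knockdown lay above all 3 labelled control. The log2 ratio was 4.52 ± 0.38 and 5.25 ± 0.27 (SD, n = 3), a difference of 0.74 with an exact two-sided permutation p of 0.1, the smallest that 3 against 3 can give, or 0.4 adjusted over the 6 ratios. The ratio of UHRF1 to UHRF2 was 2.84, 1.63 and 1.31 in control 1, 2 and 3 and 3.82, 4.25 and 2.57 in knockdown 1, 2 and 3, and control 1 lay above knockdown 3 (log2 difference 0.93, exact permutation p = 0.2, adjusted 0.4).

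UHRF1 to DPPA3 sets mRNA of the recruiter against mRNA of the protein that keeps it out of the nucleus in mouse oocytes. This ratio was 0.113, 0.0672 and 0.0557 in control 1, 2 and 3 and 0.164, 0.168 and 0.0917 in knockdown 1, 2 and 3. DPPA3 mRNA exceeded UHRF1 mRNA in all 6 libraries, and control 1 again lay above knockdown 3 (log2 difference 0.86, exact permutation p = 0.2, adjusted 0.4). The groups overlapped in the log2 ratios of DNMT3A to DNMT3B (difference 0.06, exact permutation p = 0.7), TET3 to TET1 (0.13, p = 0.7) and TET3 to TET2 (0.05, p = 0.6), each 0.7 after adjustment.

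**Figure D4:**
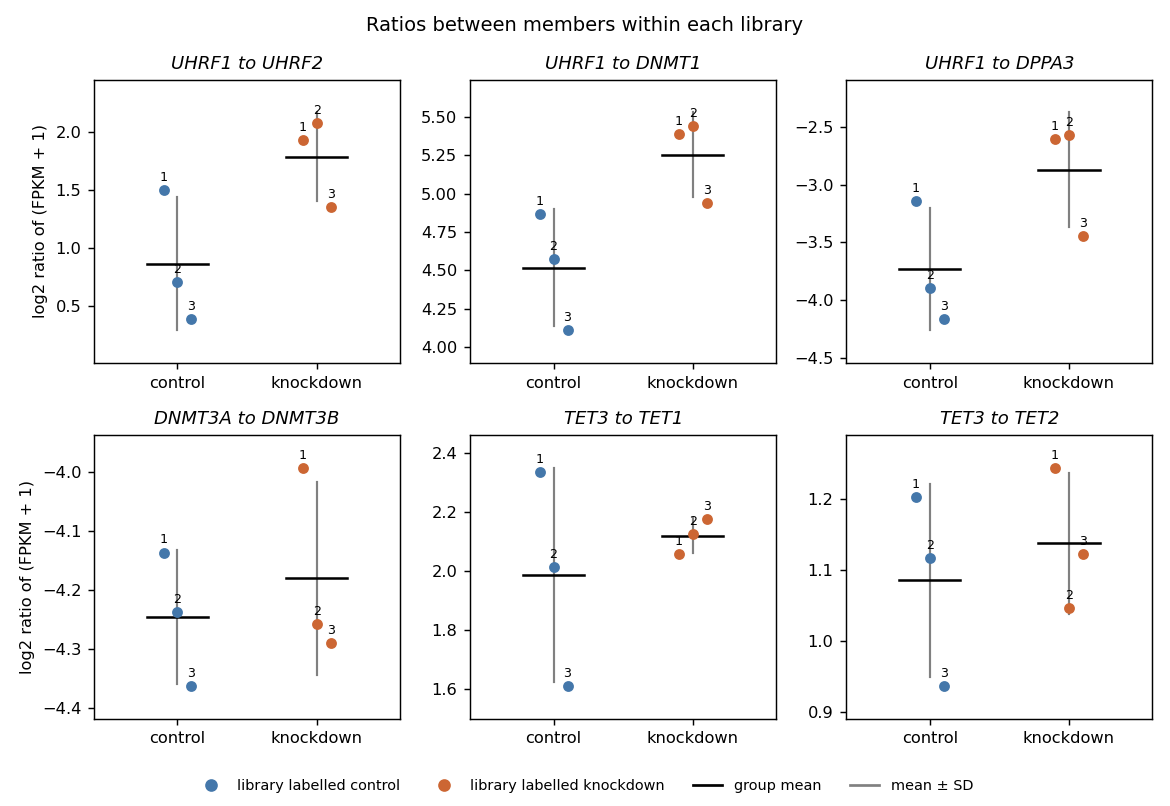
Log2 ratio of (FPKM + 1) between pairs of the genes within each library (points, with the replicate number), with group means (black bars) and mean ± SD (grey lines). In UHRF1 to DNMT1 the groups do not overlap, and in the other 5 panels they do.

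The genes whose levels ran most like those of the most abundant members were named by Pearson correlation of log2(FPKM + 1) over the 6 libraries, among tested genes whose symbol is not a LOC number. They are a description over 6 points that share their libraries and groups, with no p-value, since they were the closest of 9730 genes. UHRF1 ran most like HDAC2, GALNT11 and MTPN (r = 0.9897, 0.9883 and 0.9877, Spearman rho 1.00, 1.00 and 0.943). Without the 2 libraries farthest from the UHRF1 median, r was 0.997, 0.982 and 0.982. Here and below, rho and this r reuse libraries by which the genes were chosen, so they are no separate check. HDAC2, a histone deacetylase, was at 15.58, 12.79 and 11.9 FPKM in control 1, 2 and 3 and at 20.44, 19.99 and 15.33 FPKM in knockdown 1, 2 and 3. As in UHRF1, knockdown 1 and knockdown 2 were highest, control 3 was lowest, and control 1 lay just above knockdown 3. Other genes shared such a run of levels. Among the 9730 tested genes, 50 reached an r above 0.95 with UHRF1, against 8 with DPPA3 and 6 with UHRF2. The SD within groups exceeded that of 91.9% of tested genes for UHRF1, 8.3% for DPPA3 and 14.6% for UHRF2. Whether the counts follow this spread was not tested, and such counts were not made for other genes. DPPA3 ran most like SLC25A38, CFDP1 and CFAP20 (r = 0.974, 0.973 and 0.968, rho 0.943, 0.943 and 1.00, and 0.937, 0.858 and 0.856 without its 2 farthest libraries). UHRF2 ran most like PDE8B, LRAT and HPS3 (r = 0.988, 0.978 and 0.959, rho 0.771, 0.943 and 0.943, and 0.981, 0.957 and 0.881 without its 2 farthest libraries).

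**Figure D5:**
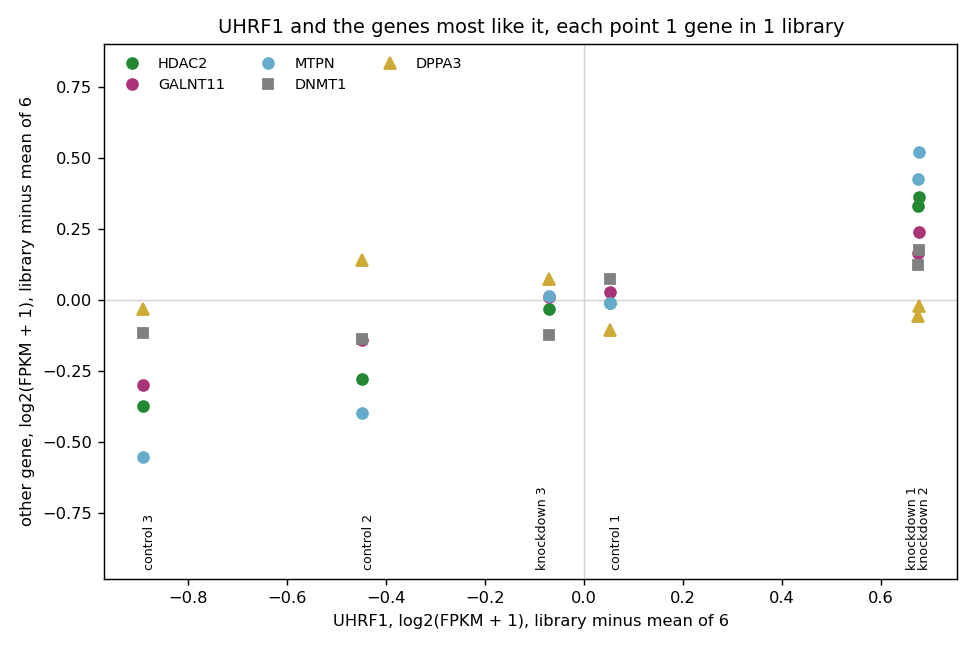
Level of HDAC2, GALNT11, MTPN, DNMT1 and DPPA3 in each library against that of UHRF1, both as log2(FPKM + 1) minus the gene's mean over the 6 libraries, each point being 1 gene in 1 library. HDAC2, GALNT11 and MTPN climb with UHRF1 over a smaller range, DNMT1 is high in the same 3 libraries, and DPPA3 stays within 0.2 of its mean.

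The partners of these genes were read from lists of 91 genes in all, of which 88 were matched and 64 tested. By limma 0 of the 64 passed over all genes, 3 had an unadjusted p under 0.05 (4.69%, against 6.53% of all tested genes), and 38 had a higher mean under the knockdown label (59.4%, against 54.2%). Among the 38 were SUV39H1 and IDH3B, which passed the filter only through their level under the knockdown label. Their direction was thus fixed by the filter, and IDH3B was also among the 3 with an unadjusted p under 0.05. The groups did not overlap in 3 of the 64 (4.69%, against 11.0% of all tested genes). The share with a higher mean in these lists ran from 42.2% without knockdown 1 to 67.2% without control 1 or knockdown 3, and it was 56.2% with median-ratio scaling and 51.6% under quantile normalization.

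Partners of maintenance methylation, such as the deubiquitinase USP7 and the remodeller HELLS, had 10 tested members of 12. Of these, 9 had a higher and 1 a lower mean under the knockdown label (median log2 difference 0.09), and 0 passed. The share of all tested genes with a higher mean was 54.2%. The count fell to 6 without control 3 or without knockdown 1, where 47.9% and 51.0% of all tested genes were higher. SUV39H1, a histone H3 methyltransferase counted among the 9, averaged 0.78 and 1.25 FPKM and passed the filter through its level under the knockdown label, so its direction was fixed by the filter. The sliding clamp PCNA averaged 552 ± 43.3 FPKM under the control and 579 ± 10.2 under the knockdown label (SD, n = 3). DNA ligase LIG1 averaged 30.4 ± 3.73 and 35.7 ± 6.06 FPKM. HDAC2, described above beside UHRF1, belongs to this list and averaged 13.4 ± 1.92 and 18.6 ± 2.83 FPKM, a log2 difference of 0.44 (limma, unadjusted p = 0.0330, adjusted p = 0.750). In the lists of partners KDM1B, TDG, LIG3, ZFP57, ZNF445, MBD2, IDH3B and SUV39H1 were chosen after their values were seen.

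Partners of de novo methylation had 9 matched and 5 tested of 11, with 1 higher and 4 lower (median log2 difference -0.16), and 0 passed. The count of higher means was 0 without control 3, without knockdown 1 or with array weights, and 2 without control 1, knockdown 2 or knockdown 3. DNMT3L was looked up by symbol and synonym but was not matched among the deposited genes, so it was not analysed. TRDMT1, a relative of the DNA methyltransferases that methylates transfer RNA, was at 51.4, 51.5 and 49.3 FPKM in control 1, 2 and 3 and at 44.8, 41.9 and 42.6 FPKM in knockdown 1, 2 and 3. All libraries labelled knockdown lay below all labelled control, and the log2 difference was -0.23 (SE 0.12, adjusted p = 0.816 by limma). The histone demethylase KDM1A averaged 30.7 ± 5.90 and 32.4 ± 4.07 FPKM (SD, n = 3), and its relative KDM1B, which the mouse oocyte needs to methylate imprinted genes, averaged 14.1 and 13.9 FPKM.

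Demethylation and base excision had 14 tested of 18, with 11 higher and 3 lower (median log2 difference 0.15), and 0 passed. Of all tested genes, 54.2% had a higher mean. The count of higher means was 8 without control 3, where that share was 47.9%, and 12 without control 1, where it was 59.7%. The glycosylase NEIL3 was the most abundant gene of the lists, at 556 ± 33.8 and 630 ± 64.9 FPKM (SD, n = 3), followed in its own list by DNA polymerase POLB at 133 ± 9.34 and 141 ± 4.14. TDG, the glycosylase that excises the TET products formylcytosine and carboxylcytosine, averaged 0.523 and 0.607 FPKM and lay below the filter. DNA ligase LIG3 averaged 5.01 ± 0.266 and 6.86 ± 0.512 FPKM without overlap between the groups (log2 difference 0.39, limma, unadjusted p = 0.0281, adjusted p = 0.750).

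Partners of TRIM28 and other imprint guards had 13 tested of 15, with 4 higher and 9 lower (median log2 difference -0.06), and 0 passed. The count of higher means was 8 without control 1, and it was 1 without control 2 and 2 without control 3 or without knockdown 1. The heterochromatin protein CBX5 averaged 14.7 ± 2.22 and 13.4 ± 1.32 FPKM (SD, n = 3), and TASOR, listed in the files as FAM208A, averaged 9.94 ± 0.885 and 9.63 ± 0.135. The 2 zinc finger proteins known to bring TRIM28 to imprints had low transcript levels, with ZFP57 at 0.0400 and 0.0367 FPKM and ZNF445 at 2.63 and 2.29 FPKM.

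Readers of methylated DNA had 6 tested of 9, with 4 higher and 2 lower (median log2 difference 0.07), and 0 passed. The zinc finger reader ZBTB33 averaged 28.6 ± 6.03 and 25.3 ± 5.06 FPKM (SD, n = 3) and ZBTB38 averaged 3.55 ± 0.485 and 3.66 ± 0.133. The methyl-CpG binding protein MBD2 averaged 1.5 ± 0.157 and 2.25 ± 0.391 FPKM without overlap (log2 difference 0.37, limma adjusted p = 0.766). The count of higher means ran from 2 without control 2 to 6 without knockdown 3.

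The methyl donor cycle, which makes S-adenosylmethionine, had 11 tested of 17, with 4 higher and 7 lower (median log2 difference -0.07), and 0 passed. The count of higher means in this list was 3 without knockdown 1 and 6 without knockdown 2. MAT2B, the regulatory subunit of the synthase, averaged 269 ± 44.7 and 251 ± 45.8 FPKM (SD, n = 3), and CTH, an enzyme that makes cysteine, averaged 137 ± 16.6 and 133 ± 18.6. Enzymes around alpha-ketoglutarate, the cosubstrate of TET enzymes, had 5 tested of 9, all with a higher mean (median log2 difference 0.08), and 0 passed. The isocitrate dehydrogenase subunit IDH3A averaged 21.3 ± 2.23 and 22.39 ± 6.499 FPKM and the glutamate dehydrogenase GLUD1 10.8 ± 2.68 and 11.4 ± 2.50. IDH3B averaged 0.730 ± 0.642 and 1.97 ± 1.03 FPKM (log2 difference 0.79, limma, unadjusted p = 0.0348, adjusted p = 0.750) and, like SUV39H1, passed the filter through its level under the knockdown label. The count of higher means was 2 without knockdown 1, and 3 without control 2, control 3 or knockdown 2, with array weights, and under quantile normalization.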

How the data were processed

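Per the labels' protocols, total RNA was taken up in TRIzol and turned into mRNA libraries with a BGI dual-mode kit. The authors deposited FPKM with 2 decimals for 17325 genes in each of 6 libraries. Per the submitters' processing notes the build was ARS-UCD1.2 and the tools included RSEM 1.3.1, Bowtie2 2.3.4.3, HISAT2 2.2.1 and DESeq2 1.4.5, with no roles or order. Strand use and the division of reads between similar genes are not given in the sources used here. Any gene with a close copy is thus uncertain. Because the RefSeq table is of ARS-UCD2.0 it was used for names and for which genes neighbour each other (17087 IDs matched), and no coordinates or sequences are printed.

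Titles gave the groups. Values were transformed as log2(FPKM + 1), which understates changes of low genes, and genes averaging 1 FPKM or more entered a limma 3.58.1 fit (R 4.3.3, trend, two-sided, group as the only term, Benjamini-Hochberg over all tested genes). The code was tested on simulated data. Single values and 6 ratios were compared by exact permutation. Alternatives were 2 pseudocounts, 2 filters, 3 scalings, array weights, robust eBayes, leaving out each library and blocking on the replicate number. Named were all 10 genes, MTFP1, the 2 most abundant genes per partner list and the 3 closest genes to each of the 3 most abundant members; others were named after their values were seen. Genes, lists and tests were chosen with earlier results of these data known. Tables and plots used Python 3.11.15, pandas 2.3.3 and matplotlib 3.10.9.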

Additional observations from a re-analysis of the deposited data

How the results depend on the processing

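Of the 10 genes 0 passed the adjusted threshold under any alternative. UHRF1 kept its direction and an unadjusted p under 0.05 in limma throughout, though all settings reuse the same 6 libraries. Its log2 difference ran from 0.62 without control 3 to 1.10 without knockdown 3. The unadjusted p in limma came near 0.05 without control 3 (0.0496), without knockdown 1 (0.0451) and without knockdown 2 (0.0423). The adjusted p lay between 0.278 (array weights) and 0.9998 (without knockdown 2). DNMT3A reached an unadjusted p under 0.05 with a pseudocount of 5 (log2 difference 0.05) and without control 1 (0.23). Its difference was 0.50 with a pseudocount of 0.1. The ratio of UHRF1 to DNMT1 kept its direction (0.53 to 0.91 with 1 library left out).

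Differences near 0 changed sign. DPPA3 was at 0.0047 with equal sums, 0.049 under quantile normalization and -0.058 to 0.067 with 1 library left out, and TET2 at -0.016 under quantile normalization and -0.015 to 0.14 with 1 left out. With 1 library left out UHRF2 ran from -0.15 to 0.00036, TRIM28 from -0.0015 to 0.18, TET3 from -0.037 to 0.25 and TET1 from -0.061 to 0.018. The log2 ratio of DNMT3A to DNMT3B was -0.056 with a pseudocount of 5 and -0.029 to 0.12 with 1 left out, that of TET3 to TET1 -0.055 to 0.31 and that of TET3 to TET2 -0.022 to 0.11. The cause was not tested. The number of the 10 genes with a higher mean ran from 6 to 9.

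Over all genes 2 passed with equal sums, 2 with a mean FPKM of at least 5, and 0 to 2 with 1 library left out, none of them among the 10. The 635 genes at an unadjusted p under 0.05 became 1037 with no filter, 358 at a mean FPKM of at least 5, 1080 with array weights and 336 without knockdown 2. The share of them that was higher went from 59.2% to 49.6% with median-ratio scaling and 46.2% under quantile normalization. With the replicate number as a block, UHRF1 had the same log2 difference of 0.86, with an SE of 0.13 against 0.27 in the main fit. Its unadjusted p in limma was then 0.000749, the lowest of all settings (adjusted p = 0.542), and 630 genes had an unadjusted p under 0.05. Same-numbered libraries deviated together with r = 0.034, -0.16 and 0.067 across genes, and 2 of 6 libraries correlated best with their own number, so the numbers were not taken as pairs. Low genes such as DNMT3A and TET1 are limited by a depth that is unknown.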
